A study of Rattus norvegicus with 172 samples.

Results

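The reactive astrocyte genes described here are a list of 10 named genes, chosen by symbol: Gfap, Vim, Gja1, Slc4a4, Aqp4, Slc1a2, Slc1a3, S100b, Glul and Aldoc. They are 10 of the 14217 genes that the array measured under a single gene symbol, and each was represented by its brightest probe set. A gene was tested where at least 6 rats had it above the middle of their array's signals, which held for 10761 genes. Of the 10 members, 9 passed and Slc1a2 did not, so counts of members below are of 9.

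Astrocytes are the glia that clear glutamate and potassium from around synapses, share small molecules through gap junctions and place water channels on vessel walls. After injury or seizures they can become reactive: the intermediate filaments of their cytoskeleton increase, while genes of coupling, transport and metabolism do not always follow. In the dentate gyrus their processes run through the granule cell layer, so tissue cut from that layer carries astrocyte RNA beside that of the neurons. The members fall into filament genes (Gfap, Vim), a gap junction gene (Gja1, connexin 43), genes of bicarbonate and water transport (Slc4a4, Aqp4), glutamate uptake (Slc1a2, Slc1a3), a calcium-binding protein (S100b) and enzymes of glutamine and sugar metabolism (Glul, Aldoc).

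Dentate granule cells were captured by laser from hippocampal sections of 164 rats, all male Sprague-Dawley, in 28 groups, and their RNA was measured on 172 Affymetrix arrays of 1 colour. In the pilocarpine model (laboratories A and B), this cholinergic agonist, given after methylscopolamine, started status epilepticus (SE), a long unbroken seizure that was then stopped. In the kainate model, repeated doses of this glutamate receptor agonist started SE, which ended by itself in laboratory A and was stopped with pentobarbital in laboratory B. SSSE stands for self-sustaining status epilepticus and came from 1 laboratory; these 3 models were sampled on days 1, 3 and 10. In kindling (laboratories A and B), rats were sampled at seizure stages 2, 4 and 5. Each laboratory had its own controls, every group held 6 rats except the SSSE controls (5), day 3 (5) and day 10 (4), and the pooling of captured tissue was within a rat. The labels do not say more of the ages or of what the controls received.

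Values are signal intensities on the log2(signal + 16) scale, each rat being 1 replicate. A change is the difference from same-laboratory controls, as the mean of the laboratories where a model has several, with the standard error of the limma fit. A gene was called changed at a Benjamini-Hochberg adjusted p under 0.05 over all 10761 genes. A change on this scale understates the change of dim genes, and levels of different probe sets are not compared.

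The median signal of the arrays ran from 27.9 to 54.2. In 6 rats the array was less like the rest of its group than in the others: SSSE day 3 rat 4, kainate A day 1 rat 1, kainate B day 10 rat 5, pilocarpine A day 10 rats 2 and 5 and pilocarpine B day 10 rat 2. SSSE day 1 rat 3 and kindling A stage 2 rat 4 have labels that disagree with each other, and the grouping follows the majority of them. Among markers that passed the filter, 6 of 6 granule cell markers lay above the array median in at least 50% of control rats. The granule cell markers C1ql2 and Tdo2 did not pass it. So did 4 of 5 astrocyte markers that are no members of the list lie above the median, and 5 of 13 markers of microglia and macrophages. The same held for 4 of 5 interneuron, 6 of 10 oligodendrocyte, 2 of 2 oligodendrocyte precursor and 5 of 8 vessel cell markers. This check therefore cannot single out the labelled cell type. All members tested except Vim lay above the array median in 41 of 41 control rats, and Vim did so in 19.

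Promoters of the members were read from RefSeq (GRCr8), which held all 10 in 15 entries. The stretches below show the 100 bases before the start of both filament genes, which rose together, and of Gja1, which moved the other way at day 1. Each reads 5′ to 3′ on the strand of the gene, and capitals mark a match to a searched motif. They lie at chr10:88361662-88361761 on the minus strand (Gfap), chr17:81577161-81577260 on the plus strand (Vim) and chr20:36302464-36302563 on the plus strand (Gja1).
Gfap: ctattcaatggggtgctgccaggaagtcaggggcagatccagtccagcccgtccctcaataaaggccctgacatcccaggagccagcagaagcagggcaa
Vim: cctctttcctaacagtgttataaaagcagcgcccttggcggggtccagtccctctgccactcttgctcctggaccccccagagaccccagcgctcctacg
Gja1: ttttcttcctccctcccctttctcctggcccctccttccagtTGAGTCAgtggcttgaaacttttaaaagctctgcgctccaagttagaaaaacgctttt
The 250 bases before each start were searched on both strands for TTCNNNGAA, the letters bound by STAT factors, TGANTCA, those of AP-1, and TGACGTCA, the cyclic AMP response element. These letters stand in 7.67%, 6.34% and 1.59% of the 33469 promoters in the table. Among the members the only match was the AP-1 letters of Gja1, and none of the motifs overlapped it. No match says only that the letters are not in this window.

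Gfap, the main filament protein of astrocytes, rose at every time of the pilocarpine and kainate models. In pilocarpine laboratory A its level was 8.77 ± 0.55 (SD, n = 6) in controls, 9.82 ± 0.42 on day 1, 11.05 ± 0.87 on day 3 and 10.29 ± 0.56 on day 10. In laboratory B the same groups had 8.03 ± 0.48, 9.19 ± 0.73, 10.61 ± 0.53 and 9.23 ± 0.65. All 12 day 3 rats lay above the range of their controls, the lowest being 10.01 in laboratory A, where controls reached 9.45, and 9.66 in laboratory B, where they reached 8.71. The change was 1.10 ± 0.24 on day 1 (adjusted p = 0.000316), 2.43 ± 0.24 on day 3, a 5.40-fold rise (adjusted p = 3.92e-10), and 1.36 ± 0.24 on day 10 (adjusted p = 0.000151).

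After kainate Gfap was already high on day 1. In laboratory A it read 9.41 ± 0.58 in controls (n = 6), 11.18 ± 0.15 on day 1, 10.90 ± 0.23 on day 3 and 10.69 ± 0.37 on day 10. Laboratory B had 8.48 ± 0.66, 10.62 ± 0.38, 10.80 ± 0.34 and 9.52 ± 0.91. Every rat of days 1 and 3 lay above the range of its controls, while on day 10 this held for 5 of 6 rats in A and 4 of 6 in B. The change was 1.96 ± 0.20 on day 1, 1.91 ± 0.20 on day 3 and 1.16 ± 0.20 on day 10, where the adjusted p was 9.18e-05. Day 3 differed from day 1 by −0.05 ± 0.20 (adjusted p = 0.89), and day 10 by −0.80 ± 0.20 (adjusted p = 0.00148).

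Vim encodes vimentin, a filament protein that mature astrocytes hold at a low level and that other cells, among them microglia, vessel cells and progenitors, also make. In pilocarpine laboratory A the lowest, median and highest values were 4.70, 5.74 and 6.68 in controls, 7.05, 7.68 and 8.78 on day 1, 7.73, 9.79 and 10.88 on day 3, and 6.39, 6.84 and 7.56 on day 10. In laboratory B they were 4.25, 4.99 and 5.97 in controls, 6.66, 7.37 and 7.69 on day 1, 7.23, 8.31 and 8.92 on day 3, and 5.93, 6.69 and 8.36 on day 10. None of the 24 rats of days 1 and 3 overlapped the controls of its laboratory. Vim rose by 2.16 ± 0.30 on day 1 (adjusted p = 4.01e-07), 3.51 ± 0.30 on day 3, which is 11.4-fold (adjusted p = 3.73e-11), and 1.52 ± 0.30 on day 10 (adjusted p = 0.000879). Vim is dim in controls, so its size depends on the constant added to the signal: with 1 and 64 in place of 16, the change was 2.95 and 1.35 on day 1 and 2.21 and 0.87 on day 10, all 4 called. Over all the settings run, the day 3 change lay between 2.52 and 4.37, so the 11.4-fold rise holds for the main setting only.

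Vim after kainate was highest early and had left the called range by day 10. Controls of laboratory A ran from 5.05 to 8.08 with a median of 5.99, and those of laboratory B from 4.94 to 7.60 with a median of 5.55; in each, a single rat (A rat 5, B rat 2) stood far above the rest. Day 1 rats ran from 7.77 to 8.80 in A and from 7.28 to 8.62 in B. Apart from the high control, no control reached the day 1 rats of its laboratory. The change was 2.18 ± 0.30 on day 1, 1.76 ± 0.30 on day 3 (adjusted p = 5.32e-05) and 0.25 ± 0.30 on day 10 (adjusted p = 0.717), and day 10 was below day 1 by −1.93 ± 0.30 (adjusted p = 1.72e-06). By laboratory, the day 3 change was 1.095 ± 0.426 in A (adjusted p = 0.282), with 0 of 6 rats above their controls. It was 2.43 ± 0.43 in B (adjusted p = 0.000227), with 4 of 6 above.

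**Figure D1:**
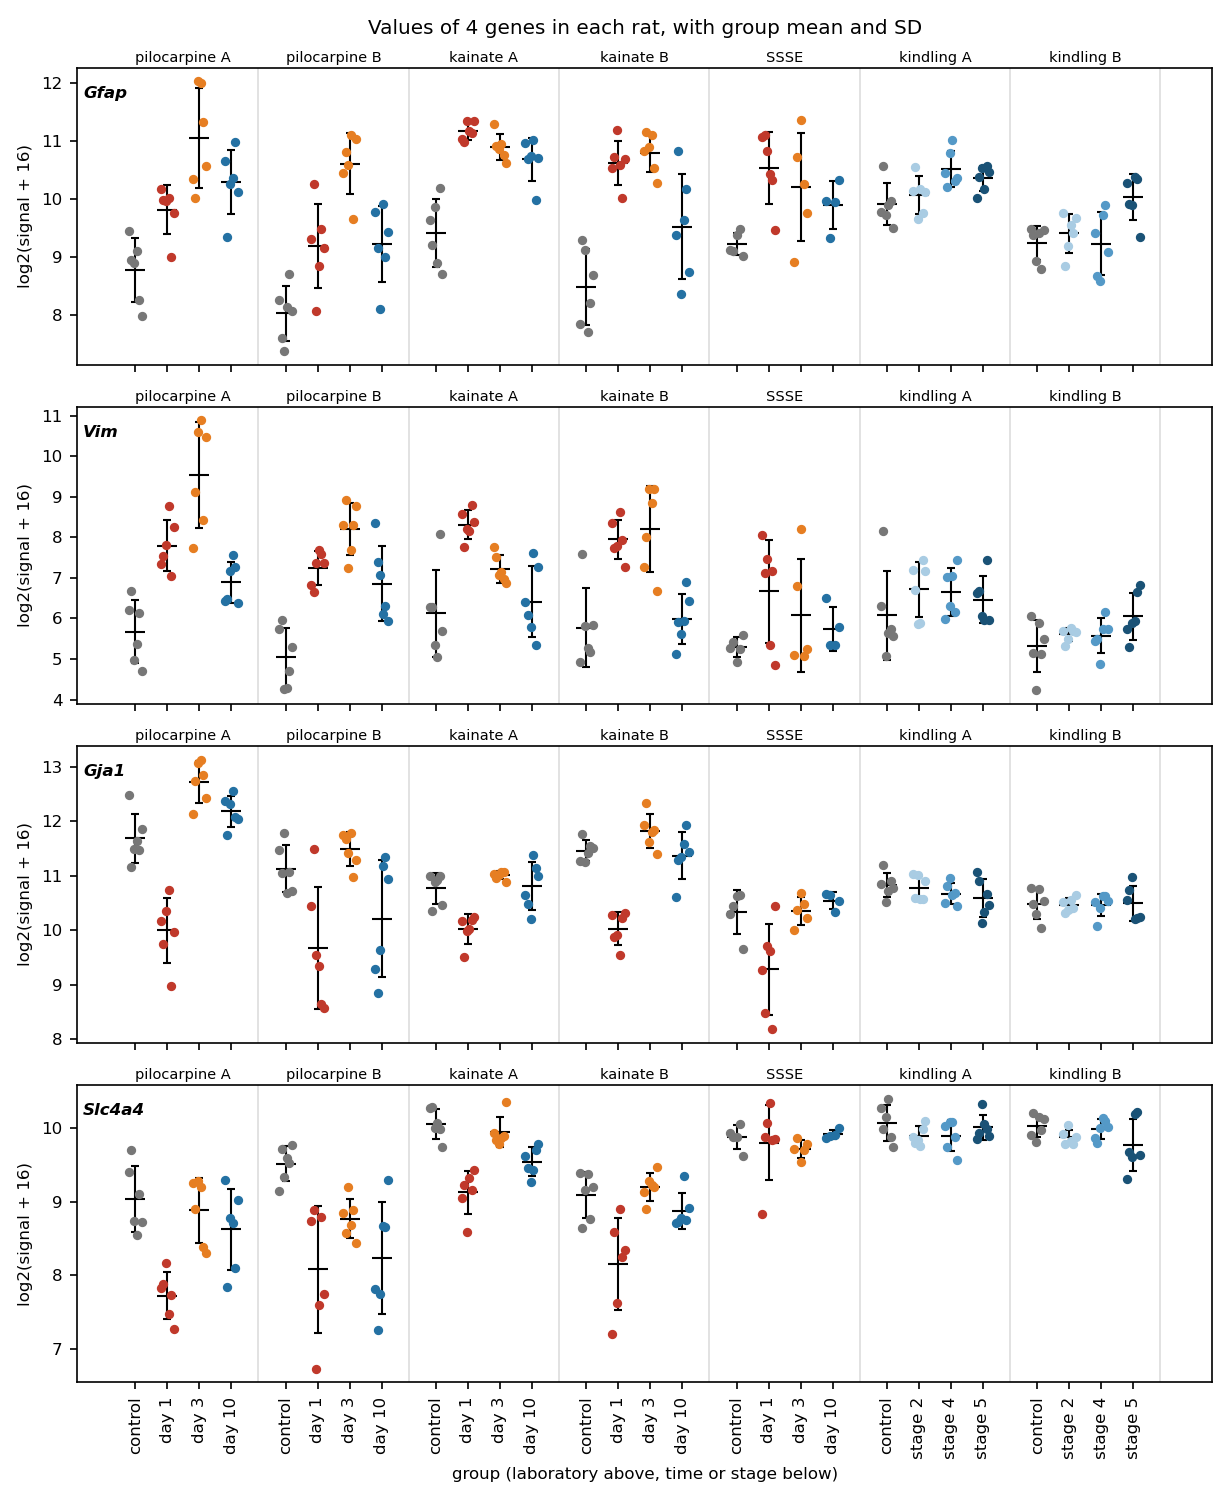
Values of Gfap, Vim, Gja1 and Slc4a4 in each rat on the log2(signal + 16) scale, by laboratory and by time or stage; points are rats, and bars give the group mean and SD. All 12 pilocarpine day 3 rats lie above their controls in Gfap and Vim, while Gja1 and Slc4a4 have their lowest mean on day 1 in each laboratory of pilocarpine and kainate.

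Gja1 encodes connexin 43, the protein of most gap junctions between astrocytes. In pilocarpine laboratory A the lowest, median and highest values were 11.17, 11.56 and 12.48 in controls and 8.99, 10.08 and 10.74 on day 1. In laboratory B they were 10.68, 11.06 and 11.79 in controls and 8.58, 9.44 and 11.50 on day 1. Thus 11 of 12 day 1 rats lay below their controls, the exception being in laboratory B. Gja1 fell by 1.57 on the log2 scale (SE 0.26, adjusted p = 5.18e-06), a 0.337-fold level. Kainate day 1 gave 10.02 ± 0.27 against 10.77 ± 0.28 in laboratory A and 10.03 ± 0.30 against 11.46 ± 0.19 in laboratory B (SD, n = 6 each), with all 12 rats below their controls. The pooled change was −1.09 ± 0.12 (adjusted p = 7.02e-10).

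The fall of Gja1 was no longer seen on day 3. Its level on day 3 was above that of day 1 by 2.27 ± 0.26 after pilocarpine (adjusted p = 3.66e-08) and by 1.39 ± 0.12 after kainate (adjusted p = 5.8e-12). Against controls, day 3 was not called in either model, with 0.70 ± 0.26 (adjusted p = 0.0693) and 0.29 ± 0.12 (adjusted p = 0.154). Array weights gave a call to both (adjusted p = 0.00475 and 0.0449), and leaving out pilocarpine A control rat 1 gave one to the first (adjusted p = 0.0407). The pilocarpine value was also called in a fit of all 28 groups (adjusted p = 0.00224) and with first arrays only (adjusted p = 0.0491). Fitted alone, pilocarpine laboratory A called it and laboratory B did not. On day 10 the values were −0.21 ± 0.26 and −0.03 ± 0.12, neither of them called. The pilocarpine value averages opposite signs, 0.50 ± 0.36 in laboratory A and −0.92 ± 0.36 in laboratory B (adjusted p = 0.104). In laboratory B 3 of 6 rats lay below their controls on that day.

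Slc4a4 encodes the sodium bicarbonate cotransporter NBCe1, which lets astrocytes regulate pH around active neurons; some neurons express it too. Laboratory A of the pilocarpine model had 9.04 ± 0.45 in controls and 7.73 ± 0.31 on day 1, and laboratory B had 9.51 ± 0.24 and 8.08 ± 0.86 (SD, n = 6 each). All 12 day 1 rats lay below the range of their controls. The change was −1.37 ± 0.21 (adjusted p = 1.48e-06) on day 1, −0.45 ± 0.21 (adjusted p = 0.17) on day 3 and −0.84 ± 0.21 (adjusted p = 0.00681) on day 10. On day 3, 7 of 12 rats lay below their controls. A fit of all 28 groups and array weights called that day lower (adjusted p = 0.0177 and 0.0406). That day 10 call ended without the 6 rats set apart above, at −0.58 ± 0.21 (adjusted p = 0.0878). Kainate lowered Slc4a4 on day 1 by −0.93 ± 0.13 (adjusted p = 4.21e-08), with 11 of 12 rats below their controls, and the later values were 0.00 ± 0.13 on day 3 and −0.37 ± 0.13 (adjusted p = 0.0684) on day 10. Without kainate B control rat 2 the last was called, at −0.41 ± 0.13 (adjusted p = 0.0418).

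Aqp4, the water channel of astrocyte endfeet, was low on day 1 and high on day 3. After pilocarpine it changed by −0.78 ± 0.28 on day 1 (adjusted p = 0.0322) and 0.90 ± 0.28 on day 3 (adjusted p = 0.0306). On day 3 all 6 rats of laboratory B lay above their controls, whose highest was 8.08, but only 2 of 6 rats of laboratory A did. Kainate gave −0.29 ± 0.15 (adjusted p = 0.107) on day 1 and 0.55 ± 0.15 (adjusted p = 0.0118) on day 3, where a fit of all 28 groups did not call it (adjusted p = 0.069). The second, dimmer probe set of Aqp4 had none of these calls, with −0.17 ± 0.16 and 0.05 ± 0.16 on days 1 and 3 after pilocarpine and 0.32 ± 0.12 (adjusted p = 0.0958) on kainate day 3. On pilocarpine day 1, 4 of 6 rats in each laboratory lay below their controls and 2 of 6 in laboratory B lay above them (change in B −0.52 ± 0.40, adjusted p = 0.408). Leaving out pilocarpine A control rat 1 or 2 ended the day 1 call of pilocarpine (adjusted p = 0.0654 and 0.0512), and leaving out A control rat 4 or 6 or B control rat 2 ended that of day 3 (0.0524, 0.0577 and 0.0502).

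Slc1a3 encodes GLAST, a glutamate transporter of astrocytes and radial glia. Its brightest probe set changed by −0.46 ± 0.22 (adjusted p = 0.11) on pilocarpine day 1, by 0.72 ± 0.22 (adjusted p = 0.025) on day 3, and by −0.49 ± 0.17 (adjusted p = 0.018) on kainate day 1. Its second probe set moved the other way on day 1, rising by 1.08 ± 0.16 after pilocarpine (adjusted p = 1.45e-06), 0.37 ± 0.14 after kainate (adjusted p = 0.0371) and 0.43 ± 0.10 in SSSE (adjusted p = 0.0105). The direction of Slc1a3 on day 1 therefore depended on the probe set. Without pilocarpine A control rat 6 the day 3 call of the brightest probe set was lost (0.62 ± 0.22, adjusted p = 0.058), and its day 1 value became a call (−0.57 ± 0.22, adjusted p = 0.0432).

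Slc1a2 encodes GLT-1, the main glutamate transporter of astrocytes, and its probe sets gave almost no signal. The brighter of its 2 probe sets had a median signal of 18.8 over 164 rats and lay above the array median in 4, with group means between 4.85 and 5.59. With no filter on low signal it was not called in any of the 12 comparisons, and at this signal a change in the transcript was not measurable.

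S100b, a calcium-binding protein of astrocytes, fell on day 1 of all 3 SE models. The changes were −0.58 ± 0.21 after pilocarpine (adjusted p = 0.0296), −0.66 ± 0.15 after kainate (adjusted p = 0.000464) and −0.73 ± 0.21 in SSSE (adjusted p = 0.03). Rats below the range of their controls were 6 of 6 in pilocarpine A, 2 of 6 in pilocarpine B, 4 of 6 in kainate A, 6 of 6 in kainate B and 5 of 6 in SSSE. By laboratory the pilocarpine change was −0.82 ± 0.29 in A (adjusted p = 0.0388) and −0.33 ± 0.29 in B (adjusted p = 0.476), where 1 rat lay above its controls. Without pilocarpine A control rat 1, the highest of its group at 9.63, the first of these was −0.48 ± 0.21 (adjusted p = 0.0703), and without B control rat 1 it was −0.51 ± 0.21 (adjusted p = 0.0625). Without the SSSE rat of contradicting labels the last was −0.72 ± 0.23 (adjusted p = 0.0515).

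Aldoc, the aldolase isoform of astrocytes, fell by 1.18 (SE 0.22, adjusted p = 5.02e-05) on pilocarpine day 1 and by 0.90 (SE 0.14, adjusted p = 7.38e-07) on kainate day 1, both on the log2 scale. It lay below the range of controls in 10 of 12 rats after each agent. On day 10 it was low again after pilocarpine, at −0.82 ± 0.22 (adjusted p = 0.0134). In laboratory B all 6 day 10 rats lay below their controls, with 7.24 ± 0.73 against 8.83 ± 0.44, whereas laboratory A had 8.63 ± 0.37 against 8.68 ± 0.51. The difference between the laboratories was −1.54 ± 0.44 and was not called (adjusted p = 0.178). Without the 6 rats set apart above the day 10 change was −0.72 ± 0.24 (adjusted p = 0.0665).

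Glul, glutamine synthetase, which turns glutamate taken up by astrocytes into glutamine, did not share the day 1 fall. Its changes on day 1 were 0.16 ± 0.17 after pilocarpine and 0.17 ± 0.12 after kainate, neither of them called. On day 3 it rose by 0.78 ± 0.17 after pilocarpine (adjusted p = 0.00134) and by 0.44 ± 0.12 after kainate (adjusted p = 0.00908). The pilocarpine rise was 1.25 ± 0.24 in laboratory A (adjusted p = 0.00092), with 5 of 6 rats above their controls, but 0.31 ± 0.24 in laboratory B (adjusted p = 0.604), with 0 of 6. The next brightest probe set of Glul was called higher on day 1, by 0.66 ± 0.23 (adjusted p = 0.025) and 0.70 ± 0.14 (adjusted p = 5.69e-05). On day 3 it was called after pilocarpine (0.79 ± 0.23, adjusted p = 0.0204) and not after kainate (0.41 ± 0.14, adjusted p = 0.0635). A dimmer probe set was called higher on kainate day 1 (0.38 ± 0.11, adjusted p = 0.00479) and not on pilocarpine day 1 (0.19 ± 0.18). On day 3 it was not called after pilocarpine (0.34 ± 0.18, adjusted p = 0.257) or kainate (0.28 ± 0.11, adjusted p = 0.122). The course of Glul therefore depended on the probe set.

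**Figure D2:**
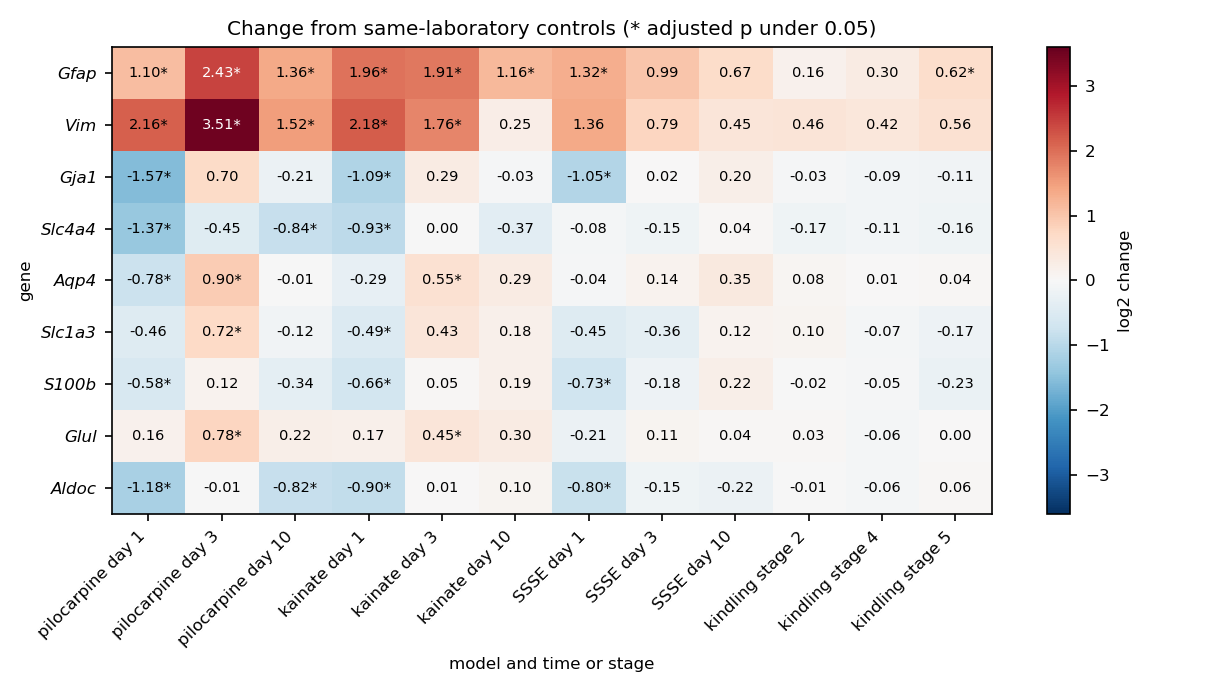
Log2 change of each of the 9 tested members (rows) from same-laboratory controls in the 12 comparisons (columns); red is higher, blue is lower, and an asterisk marks an adjusted p under 0.05. Both filament genes are red on day 1 of pilocarpine and kainate, where 5 other members are blue and called. None of those 5 is called lower on day 3 in these fits per model. A fit of all 28 groups called Slc4a4 lower on pilocarpine day 3.

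As a list, 2 of 9 members rose and 5 fell on pilocarpine day 1, and 2 rose and 5 fell on kainate day 1. Of all genes tested, 15.8% were higher and 16.3% lower at the first of these, and 22.2% and 19.4% at the second. The median change of the members was −0.58 and −0.49, against 0.00 and 0.02 over all genes. The risers were Gfap and Vim in both models; Gja1, Slc4a4, S100b and Aldoc fell in both, beside Aqp4 after pilocarpine and Slc1a3 after kainate. With the second probe set of Slc1a3, which was called higher at both, the fallers on kainate day 1 would be 4. On day 3, 5 members rose and 0 fell after pilocarpine, where 7.74% of all genes were higher and 3.92% lower, and 4 rose and 0 fell after kainate, where 4.66% and 3.3% did. On day 10, 2 rose and 2 fell after pilocarpine (3.82% and 5.11% of all genes), and 1 rose and 0 fell after kainate (2.57% and 3.71%). Without pilocarpine A control rat 6 the day 3 count was 3 in place of 5, and without the 6 rats set apart above the pilocarpine day 10 count was 2 in place of 4. In a fit of all 28 groups Slc4a4 was called lower and Gja1 higher on pilocarpine day 3 (adjusted p = 0.0177 and 0.00224).

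The course between times was tested directly. All 9 members were higher on day 3 than on day 1 after pilocarpine, where 14% of all genes were, and 6 of 9 after kainate, where 15.3% were. The 3 not called after kainate were Gfap, Vim and Glul. Both counts hold Slc1a3 by its brightest probe set. Its second probe set went the other way, with changes from controls of 1.08 on day 1 and 0.43 on day 3 after pilocarpine. After kainate these were 0.37 and 0.07. Other probe sets of Glul and Aqp4 went the same way as the brightest after pilocarpine, by less. Those of Glul had 0.66 and 0.19 on day 1 and 0.79 and 0.34 on day 3. That of Aqp4 had −0.17 and 0.05. The differences between days of these probe sets were not tested. From day 3 to day 10 after pilocarpine, Vim (−1.998 ± 0.304), Gfap (−1.07 ± 0.24), Slc1a3 (−0.85 ± 0.22) and Aldoc (−0.81 ± 0.22) fell, against 1.53% of all genes. The second probe set of Slc1a3 did not share this fall, with 0.43 on day 3 and 0.61 on day 10. After kainate only Vim fell over that interval (−1.51 ± 0.30, adjusted p = 0.00706), against 0.595% of all genes. By the difference of day 10 from day 1, kainate left Gfap and Vim lower and 6 other members higher, where 18.8% and 14.2% of all genes were. The 6 hold Slc1a3 and Aqp4 by their brightest probe sets. On days 1 and 10 the second probe set of Slc1a3 had 0.37 and 0.18, and that of Aqp4 0.09 and 0.09. The difference of day 10 from day 1 after pilocarpine called Gja1 alone, higher by 1.36 ± 0.26 (6.9% of all genes higher), and in SSSE Gja1 (1.26 ± 0.31) and S100b, both higher (3.52%).

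**Figure D3:**
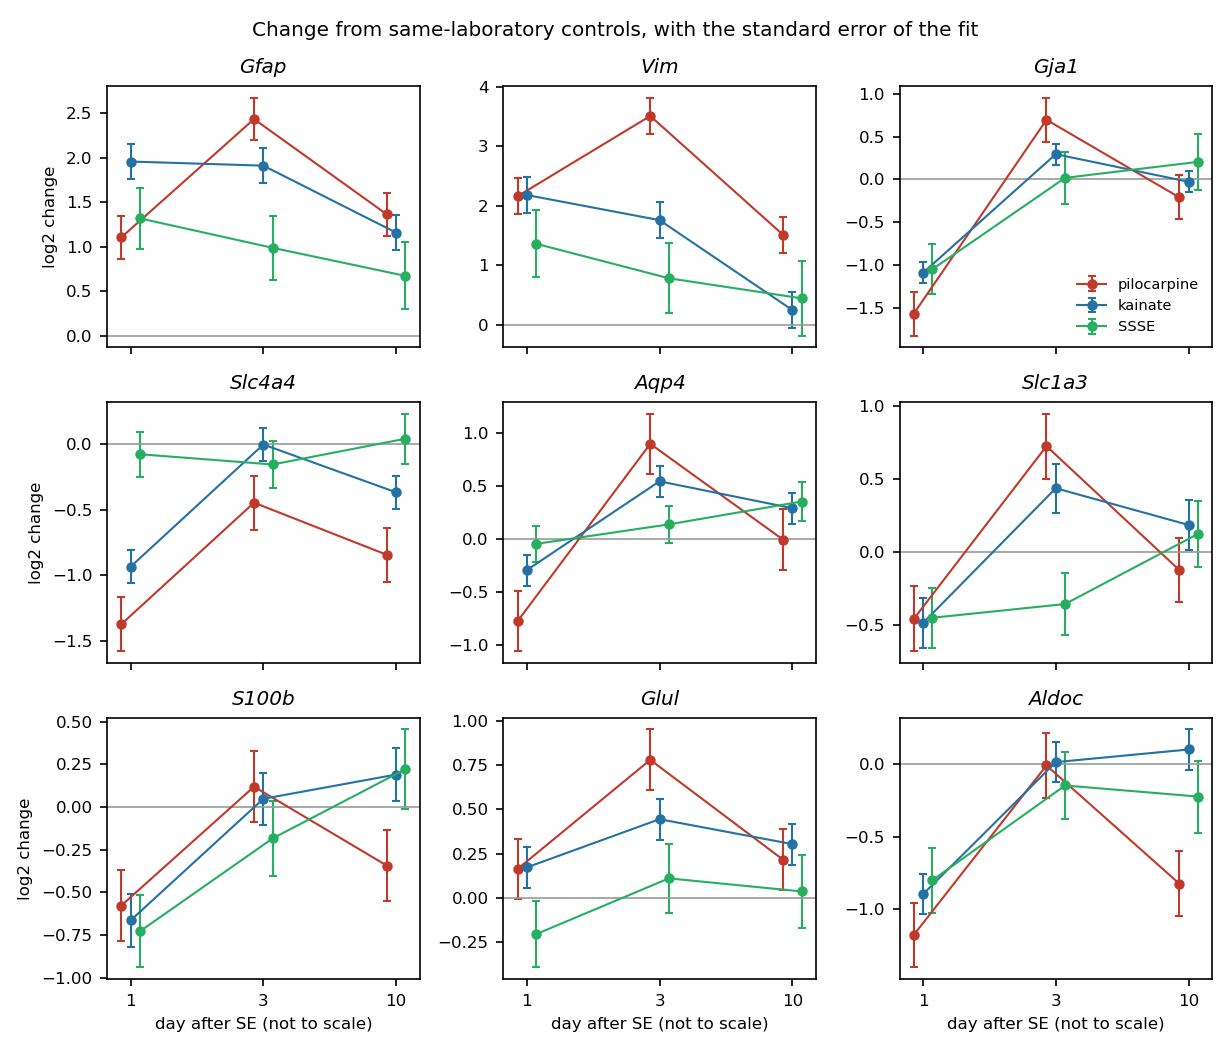
Change of each tested member from same-laboratory controls on days 1, 3 and 10 in the pilocarpine, kainate and SSSE models; points are log2 changes, bars are standard errors of the fit, and each panel has its own vertical scale. Gja1 lies below 0 on day 1 in all 3 models and near or above it on day 3, while Gfap stays above 0 throughout.

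The contrast of filament genes with the rest was present in most rats on day 1 of the SE models. For each rat the mean change of Gfap and Vim and that of the other 7 tested members were taken from the mean of the same laboratory's controls, as a description with no test. On day 1 the filament mean was up and the other mean down in 12 of 12 kainate rats, 11 of 12 pilocarpine rats and 5 of 6 SSSE rats. On day 3 both means were up in 12 of 12 kainate rats and 11 of 12 pilocarpine rats. The filament mean of kainate rats was 2.07 ± 0.25 on day 1 (SD, n = 12) and the other mean −0.60 ± 0.19; on day 3 they were 1.84 ± 0.73 and 0.25 ± 0.19. On pilocarpine day 10 laboratory B had the filament mean up and the other mean down in 6 of 6 rats and laboratory A in 3 of 6. These signs were also found in 6, 5 and 9 of 12 rats at kindling stages 2, 4 and 5. At stage 5 the 2 means were small, 0.59 ± 0.35 and −0.08 ± 0.16 (SD, n = 12). Controls had the same signs in 3 of 12 rats of pilocarpine, 0 of 12 of kainate, 2 of 5 of SSSE and 1 of 12 of kindling.

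**Figure D4:**
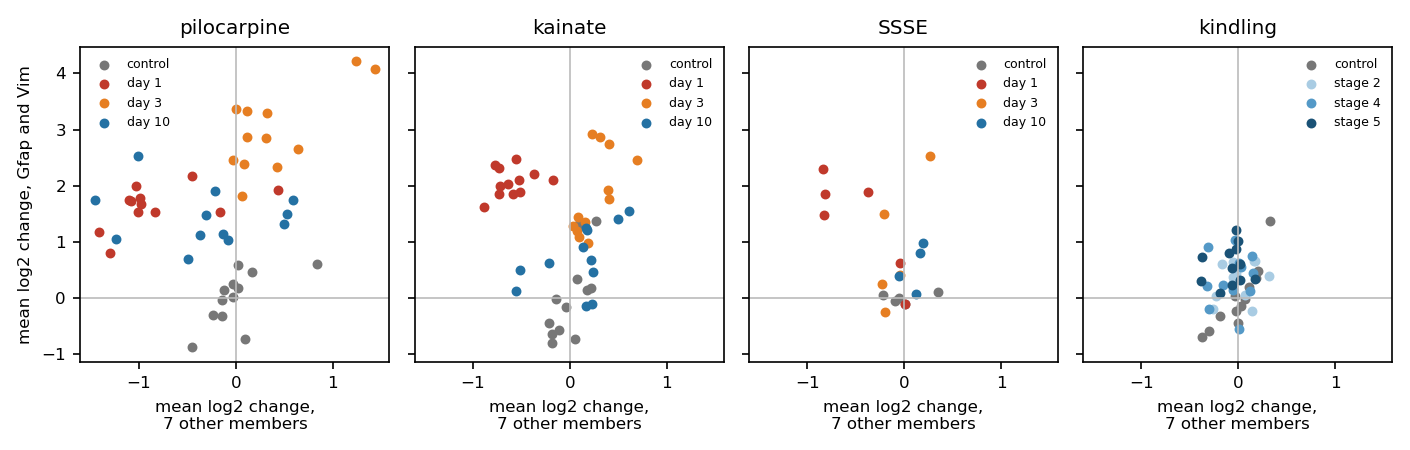
Mean log2 change of Gfap and Vim (vertical) against that of the 7 other tested members (horizontal) in each rat, by model; each point is a rat, coloured by time or stage, and 0 is the mean of the same laboratory's controls. Day 1 rats of kainate all lie at the upper left and day 3 rats at the upper right, while no kindled rat of stages 2, 4 or 5 is above 1.215 on the vertical axis.

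In SSSE the changes were fewer. Gfap read 9.02, 9.13 and 9.48 as the lowest, median and highest of 5 controls and 9.46, 10.63 and 11.11 on day 1, with 5 of 6 rats above the controls. It rose by 1.32 ± 0.34 (adjusted p = 0.0176). Gja1 fell by 1.05 on the log2 scale (SE 0.29, adjusted p = 0.0258) and Aldoc by 0.80 (SE 0.22, adjusted p = 0.0259), which with S100b makes 1 member higher and 3 lower on day 1, where 5.51% and 7.02% of all genes were called. Vim ran from 4.85 to 8.05 on day 1 against 4.93 to 5.60 in controls and was not called (1.36 ± 0.57, adjusted p = 0.113), though a fit of all 28 groups (adjusted p = 0.0461) and array weights (1.505 ± 0.449, adjusted p = 0.0214) called it. On days 3 and 10 limma called 0 of 9 members; 1 and 0 of them, respectively, had an unadjusted p under 0.05, and 3.14% and 0.344% of all genes were called.

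The day 1 count of SSSE rested on single rats. Gja1 lost its call without control rat 2, 3 or 4 or day 1 rat 2 or 5 (adjusted p from 0.0539 to 0.0652), S100b without control rat 4 or 5 or day 1 rat 1, 2, 3 or 5 (0.0515 to 0.0728), and Aldoc without control rat 4 or 5 or day 1 rat 1 or 2 (0.051 to 0.0655). Without control rat 4 or day 1 rat 2 it was 1 member in place of 4, and without control rat 5, day 1 rat 1 or day 1 rat 5 it was 2. Gfap stayed called in each of these. Without day 1 rat 6 Vim was called as well, at 1.73 ± 0.53 (adjusted p = 0.0287). On day 3 Gfap was 0.99 ± 0.36 (adjusted p = 0.132) and, without rat 2, which read lower than any control at 8.92, 1.31 ± 0.32 (adjusted p = 0.0246).

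Of the members, kindling had a call in Gfap alone. In laboratory A it was 9.91 ± 0.36 in controls, 10.07 ± 0.32 at stage 2, 10.52 ± 0.31 at stage 4 and 10.36 ± 0.22 at stage 5 (SD, n = 6 each), and in laboratory B 9.24 ± 0.30, 9.41 ± 0.34, 9.23 ± 0.55 and 10.03 ± 0.40. At stage 5 it had risen by 0.62 ± 0.14, or 1.54-fold (adjusted p = 0.00526), with 5 of 6 rats of laboratory B above their controls and 0 of 6 in laboratory A. A fit of all 28 groups, with its wider error of 0.21, did not call it (adjusted p = 0.152). By the fit of kindling alone, 1 of 9 members was higher and 0 lower at stage 5, where 3.23% and 3.87% of all genes were called. Vim changed by 0.56 ± 0.25 (adjusted p = 0.176) at stage 5, and by 0.77 ± 0.21 (adjusted p = 0.0235) without control rat 2 of laboratory A, which stood at 8.16 where the median was 5.68. At stages 2 and 4 limma called 0 of 9 members and 0 of all genes, with 1 member under an unadjusted p of 0.05 at each. Gja1 changed by −0.11 ± 0.10 at stage 5, with a 95% interval from −0.31 to 0.09, which leaves out a fall of the size seen on day 1 of the SE models.

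Differences between the SE models in the change on the same day were tested in a fit of all 28 groups. Slc4a4 fell more on pilocarpine day 1 than in SSSE, by −1.30 ± 0.27 (adjusted p = 0.00134, where 1.06% of all genes were lower). In SSSE its change was −0.08 ± 0.17, with values of 9.62 to 10.06 in controls and 8.84 to 10.33 on day 1. Vim rose more on pilocarpine day 3 than on kainate day 3, by 1.75 ± 0.44 (adjusted p = 0.0495), and than in SSSE, by 2.73 ± 0.58 (adjusted p = 0.00924), with 0.186% and 0.158% of all genes higher in those differences. Aldoc was lower on pilocarpine day 10 than on kainate day 10 by −0.92 ± 0.23 (adjusted p = 0.0307, 0.232% of all genes). No other difference between models was called for a member. That of Gja1 on day 1 was −0.48 ± 0.26 between pilocarpine and kainate, with a 95% interval from −0.99 to 0.04, and that of Gfap was −0.85 ± 0.29 (interval −1.44 to −0.27, adjusted p = 0.0779).

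Between laboratories of a model, no member's change was called different in any of 9 comparisons, in which 0.00929% of all genes were called on kainate day 1 and 0 at the other 8. The widest gap was that of Aldoc given above, followed by Gja1 on pilocarpine day 10 (−1.42 ± 0.51, adjusted p = 0.232) and Vim on kainate day 3 (1.33 ± 0.60, adjusted p = 1). Control levels did differ in size between laboratories: Gfap ran from 8.03 in pilocarpine B to 9.91 in kindling A, a range of 1.88 beside a median SD of 0.48 within a laboratory.

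Other genes of coupling and transport also fell on day 1, counted over lists that hold no member. Of 11 measured coupling, water and ion genes, 0 rose and 5 fell on pilocarpine day 1, 0 and 6 on kainate day 1, and 0 and 4 on SSSE day 1. The shares of all genes called lower were 16.3%, 19.4% and 7.02% at these times, and those called higher 15.8%, 22.2% and 5.51%. Gjb6, connexin 30, fell by 1.24 (SE 0.23), 1.23 (SE 0.20) and 0.90 (SE 0.22) on the log2 scale, and Atp1b2, a subunit of the glial sodium pump, by 0.97 (SE 0.22), 1.20 (SE 0.16) and 1.30 (SE 0.27). Against the same shares, of 9 glial amino acid transport genes 4, 4 and 3 fell and 0 rose; Slc25a18, a mitochondrial glutamate carrier, changed by −1.08 ± 0.19, −1.02 ± 0.14 and −0.78 ± 0.19. Of 16 astrocyte identity genes 7 fell in each model, among them Ndrg2 (−1.18 ± 0.24, −1.08 ± 0.15 and −1.14 ± 0.23), and 2, 1 and 0 rose. Of 10 genes of glial energy metabolism 2 rose and 4 fell after pilocarpine, 3 and 5 after kainate, and 0 and 3 in SSSE. All the named changes had an adjusted p under 0.05 in limma. On day 3 the coupling list had 1 gene higher and 0 lower after each agent, where 7.74% and 4.66% of all genes were higher.

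Genes known to rise in reactive astrocytes were higher on day 1, 12 of 14 measured after pilocarpine and 11 of 14 after kainate, with 0 lower, but 1 of 14 in SSSE, against the day 1 shares just given. The list held 24 genes, and the rest, among them Cxcl10, Osmr and Socs3, were not measured after the filter. The filter counts treated rats, so a gene dim in controls could pass it by its own rise. The share of risers in this list may therefore be raised by the filter. Hspb1, a small heat shock protein that binds filaments, rose by 3.02 ± 0.48 and 4.32 ± 0.26, and Timp1, an inhibitor of matrix proteases, by 3.10 ± 0.45 and 3.49 ± 0.25. By day 3 the count was 6 and 2 of 14, against 7.74% and 4.66% of all genes. Among 11 other filament and cytoskeleton genes 4 rose and 0 fell on pilocarpine day 1 and 6 rose and 1 fell on kainate day 1, led by Msn, moesin (2.64 ± 0.36 and 3.18 ± 0.21). Many of these genes are also made by microglia, vessel cells or stressed neurons.

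Some markers of other cell types moved with the filament genes after pilocarpine and kainate. Of 13 microglia and macrophage markers 8, 10 and 6 were higher on days 1, 3 and 10 after pilocarpine, and 7, 11 and 6 after kainate. In SSSE 0, 2 and 0 were higher, and 0 at each stage of kindling. Itgam, Cx3cr1 and Trem2 were not among those measured after the filter. Cd68 and Tyrobp lay above the array median in 0 of 41 control rats, and C1qb and Gpnmb in 1 of 41. These passed the filter through treated rats, so counting them as higher partly repeats the filter. The mean level of the 13 markers per rat ran from 5.55 to 6.37 in pilocarpine A controls and from 6.67 to 8.16 on day 3, and from 5.41 to 5.89 and from 6.37 to 7.17 in laboratory B. In kainate it ran from 5.32 to 6.38 in controls and 6.10 to 6.79 on day 3 in A, and from 5.51 to 5.91 and 6.22 to 6.87 in B. Of 10 progenitor and dividing cell markers 7 were higher on pilocarpine day 3 and 5 on kainate day 3, such as Cdk1 (1.62 ± 0.17 and 0.93 ± 0.14). Of 8 endothelial and mural markers 2 were higher on day 1 after each agent and 0 on day 3. On SSSE day 1, where Gfap rose, 0 of 13 microglial markers and 3 of 10 progenitor and dividing cell markers were higher. Over all genes 15.8%, 7.74% and 3.82% were higher on days 1, 3 and 10 after pilocarpine, and 22.2%, 4.66% and 2.57% after kainate. The share was 5.51% on SSSE day 1 and 3.23% at kindling stage 5. In either direction 3.14% and 0.344% of all genes were called on SSSE days 3 and 10, and 0 at kindling stages 2 and 4. The part of these cells in the rise of Gfap and Vim was not tested. At kindling stage 5, where Gfap rose, 0 of 13 microglial markers passed the test and their mean change was −0.11 in A and −0.05 in B, while 2 of 10 progenitor and dividing cell markers were higher, Top2a (0.45 ± 0.09) and Sox11 (0.28 ± 0.09).

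Granule cell markers fell beside the coupling and transport genes on day 1. All 6 measured were lower after pilocarpine and after kainate, and 3 of 6 in SSSE, with Plk5 at −3.38 ± 0.39, −3.81 ± 0.28 and −3.81 ± 0.56. Of 7 general neuron markers, 0 were called in either direction after pilocarpine (median change −0.06), 3 were lower and 1 higher after kainate (−0.16), and 0 lower and 1 higher in SSSE (0.04). Of 10 oligodendrocyte markers 1, 1 and 0 were lower and 0 higher on those days, with medians of −0.53, −0.31 and −0.65. Over all genes 16.3%, 19.4% and 7.02% were lower on those days, and 15.8%, 22.2% and 5.51% higher. The oligodendrocyte counts did not exceed the shares of all genes called lower. In captured tissue, fewer cells of a type and less RNA per cell cannot be told apart. From controls to day 1 the mean of the arrays' median signals went from 42.7 to 36.4 in pilocarpine A, from 33.4 to 37.1 in pilocarpine B, from 30.6 to 30.5 in kainate A, from 36.7 to 34.6 in kainate B and from 31.7 to 30.5 in SSSE. The 3′ to 5′ log2 ratio of the Gapdh control probe sets went from 2.04 to 1.94, 1.88 to 1.89, 1.502 to 1.11, 1.65 to 1.46 and 1.19 to 1.06 in the same order. The ratio of actin went from 4.10 to 4.18, 4.33 to 4.35, 3.47 to 3.19, 3.765 to 3.41 and 3.51 to 3.08. Median signal and the Gapdh ratio fell in every laboratory except pilocarpine B, where both rose. The part of these measures in the day 1 falls was not tested.

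Over the 164 rats, as values less the mean of the same laboratory's controls, Gfap and Vim correlated at r = 0.75. The 14 pairs of a filament gene with another member ran from −0.43 to 0.51 with a median of 0.03, and the 21 pairs of other members from −0.12 to 0.78 with a median of 0.58. These are descriptions, since rats share groups, laboratories and controls. The genes most like Gfap were S100a3 (r = 0.82), S100a4, Vim, C1qc and Fbln2, and those most like Vim were S100a4 (r = 0.872), Lgals3, Tspo, S100a10 and Gpnmb. Those most like Gja1 were Tril (r = 0.924), Slc15a2, Ndrg2, Plpp3 and Cmtm5. Slc4a4 had other neighbours: Gabra5 (r = 0.849), a GABA receptor subunit of neurons, Ttll7, Dock10, Add3 and Ctnna2, while Gja1 ranked only 458 of 10760 genes by likeness to it.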

How the data were processed

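Signal intensity per probe set was deposited by the authors as linear values, 1 column per array, for 172 arrays of 164 rats; MAS5 is named in the submitters' processing notes, its version not given. Every array has a trimmed mean of 150.04 to 150.06 after dropping the lowest and highest 2% of probe sets, so a change is relative to the whole array. Such arrays read mostly the 3′ end of a transcript, and their number limits the precision.

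The platform annotation gave 20826 probe sets 1 gene symbol, 436 several and 9780 none; the last 2 kinds and 57 control probe sets were not tested. Probe sets above their array's median in at least 6 rats were kept (14282 with 1 symbol), and the brightest, by the mean of log2(signal + 16), stood for its gene. The 2 arrays of a repeated rat (8 rats) were averaged. All genes were fitted with limma 3.58.1 in R 4.3.3, with a fit per model with 1 mean per laboratory and time, checked on simulated data; differences between models came from a fit of all 28 groups. Plots used matplotlib 3.10.9 in Python.

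The members and lists were chosen with earlier results of these data known. Named genes are the members, up to 3 called genes per list and comparison with the same sign in every laboratory, and the 5 genes most correlated with Gfap, Vim, Gja1 and Slc4a4. List counts carry no test of the list. Rat numbers are not said to pair rats. Laboratories A and B separate the rats as batches do, and changes were taken within them. Whether rats of a group shared a litter is not given in the sources used here. Leaving out single control rats outside SSSE and single pilocarpine day 10 rats was added after the data were seen.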

Additional observations from a re-analysis of the deposited data

Results flagged for a closer look

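In groups of 4 to 6 rats, 13 of 252 combinations of member and group held a rat far from the others by Dixon's 95% limit, and chance gives about 1 in 20. Gfap was low in kainate A day 10 rat 5 (9.99) and pilocarpine A day 1 rat 5 (8.997). Vim was high in kainate B control rat 2 (7.60), and Gja1 low in kainate A day 1 rat 2 (9.51). Slc4a4 was low in SSSE day 1 rat 1 (8.84) and high in kainate A day 3 rat 6 (10.35) and kainate B day 10 rat 4 (9.34). Slc1a3 was high in kainate B day 3 rat 2 (10.74) and low in kindling B stage 4 rat 2 (9.02). S100b and Glul were both high in pilocarpine A control rat 1 (9.63 and 10.29), and Glul in SSSE day 3 rat 4 (10.25), while Aldoc was low in kainate B day 10 rat 1 (8.05).

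Of the differences between SE models, 4 passed the test of the difference itself: Slc4a4 on day 1 between pilocarpine and SSSE (−1.30), Vim on day 3 between pilocarpine and kainate (1.75) and between pilocarpine and SSSE (2.73), and Aldoc on day 10 between pilocarpine and kainate (−0.92).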

How the results depend on the processing

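Of 33 called member changes, 20 kept their call under every alternative run on their own probe set, and 815 of 855 such checks kept it, all 855 with the same sign. Changed counts of members were 3 on pilocarpine day 3 at an adjusted p under 0.01; 2 on pilocarpine day 10 without the 6 rats least like their groups; 2 on kainate day 10 with 64 added to each signal and with the rat number as a replicate block; 0 on SSSE day 1 at an adjusted p under 0.01; 2 on SSSE day 3 with array weights; and 0 at kindling stage 5 in a fit of all 28 groups. The block changed no other count by over 1.5 times. The labels do not say that equal numbers mark paired rats, so the main fits left pairing out. Of 164 rats, 50 had their best match in another group of the laboratory under the same number. The lowest correlation of a same-numbered pair was −0.46. These values were not compared with chance, and whether same-numbered rats were processed together was not tested. Single rats were left out among all controls, the treated SSSE rats and the pilocarpine day 10 rats. Treated rats of pilocarpine days 1 and 3, of kainate and of kindling were not left out singly. These fits gave 5 to 8 on pilocarpine day 1, 3 to 6 on pilocarpine day 3, 1 to 2 on kainate day 10, 1 to 5 on SSSE day 1, 0 to 1 on SSSE day 3 and 1 to 2 at kindling stage 5. The second probe set of Slc1a3 gave 1.08 on pilocarpine day 1, 0.61 on pilocarpine day 10, 0.37 on kainate day 1 and 0.43 on SSSE day 1, each opposite to the brightest; the cause was not tested. Quantile normalization left the median change of all genes within 0.03 of 0 and changed no member's call. Low signal limits Slc1a2.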
